A study of Sus scrofa with 11 samples.

Results

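Transcripts of fat cells were examined in the carotid artery of pigs through 10 adipocyte genes: ADIPOQ, PLIN1, PLIN4, LEP, CIDEC, CIDEA, LPL, FABP4, PCK1 and LIPE. They were taken by name from the 35670 genes of the count table, each name had a single row, and all 10 passed the low-count filter that kept 15930 genes. The tissue is labelled as carotid artery only, and nothing in the labels says whether the fat around the vessel was kept or trimmed, so the name perivascular is a working name for the gene list and not a stated dissection. The pigs (Sus scrofa) ate a Western diet rich in fat and calories for 12 weeks. Each week, under anaesthesia, they received by vein, at 400 nM, either single-walled carbon nanotubes loaded with a compound that blocks the phosphatase SHP-1 (SWNT-SHP1i) or the same nanotubes alone (SWNT). The design text calls this a macrophage-specific treatment of porcine atherosclerosis and asks whether it lessens dying cells and inflammation in the artery without anaemia. Both groups shared the diet, the carrier and the weekly anaesthesia, and the samples include no lean or untreated group. Of 6 SWNT-SHP1i and 5 SWNT animals, the counts of 5 and 5 were analysed here, since SWNT-SHP1i replicate 4 is labelled as having died before harvest. The labels give no strain, sex or age.

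White fat cells store triglyceride in a single large droplet, coated with proteins that control access of lipases, and release it as fatty acids when energy is short. They also secrete hormones, of which adiponectin and leptin are the best known. Large arteries are commonly bedded in such fat, which lies outside the adventitia, and a piece of vessel can therefore carry more or less of it. Several of the genes are also used outside fat cells: FABP4 by capillary endothelium and macrophages, LPL by muscle and macrophages, PLIN4 by muscle and PCK1 by liver and kidney.

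The libraries held 27593564 to 39413481 counts in SWNT-SHP1i and 32931527 to 47718854 in SWNT. SWNT-SHP1i replicate 3 stood apart with 21173 genes at 0, against 16016 to 17979 in the other 4 SWNT-SHP1i libraries and 15728 to 18411 in SWNT. SWNT-SHP1i replicate 6 stood apart by its cell markers, with the lowest summed smooth muscle level (18758 CPM, with CPM the count scaled to a common library total) and the highest summed level of 12 macrophage markers (2448 CPM). Over all SWNT-SHP1i libraries the macrophage sum ran from 419 to 2448 CPM, against 405 to 1257 CPM in SWNT, and all 12 of its markers had positive fold changes. The smooth muscle sum of 8 markers ran from 18758 to 46069 CPM in SWNT-SHP1i and from 37923 to 56855 CPM in SWNT.

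The fat cell genes differed far more between animals of the same group than between the groups. The 10 genes together summed to 184.7 to 549.5 CPM, relative to raw library totals, in SWNT-SHP1i and 128.9 to 673.3 CPM in SWNT. SWNT replicates 2 and 5 had the lowest levels of ADIPOQ, PLIN1, CIDEA and FABP4 of all 10 libraries, while SWNT replicates 1 and 3 were among the highest 3 for 9 and 8 of the genes. In the SWNT-SHP1i group replicate 5 was among the highest 3 for 5 genes and replicate 1 among the lowest 3 for 7. With the quasi-likelihood test of edgeR, 0 of 10 genes passed an adjusted p of 0.05, where 0% of all genes tested passed. At an unadjusted p under 0.05 the counts were 0 of 10 for the fat cell genes and 739 of 15930 (4.64%) for all genes. In bulk tissue a low level can mean fewer fat cells or less RNA per cell, and these cannot be told apart.

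**Figure D1:**
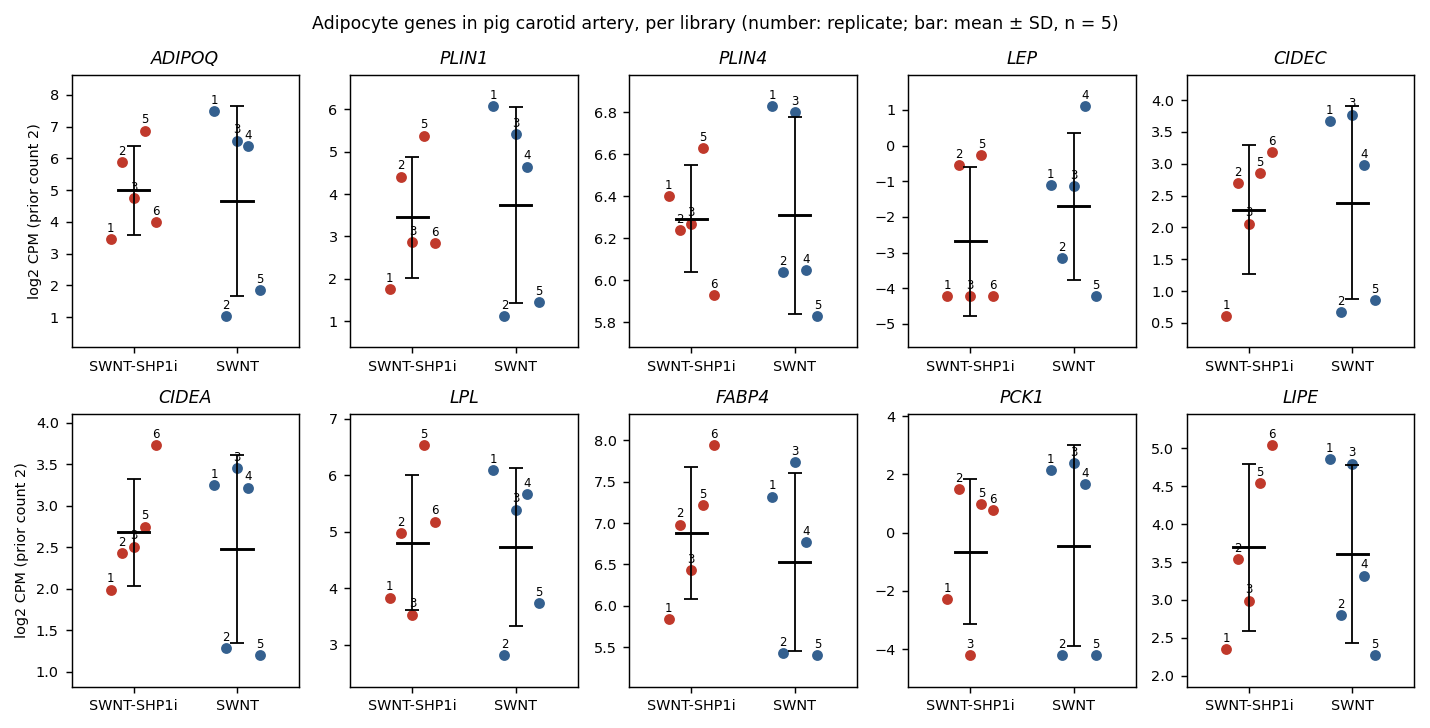
Level of each adipocyte gene (log2 CPM, prior count 2) in every library, SWNT-SHP1i left and SWNT right, with the replicate number beside each point and the mean ± SD (n = 5) as a bar. The groups overlap for all 10 genes, and SWNT replicates 2 and 5 lie far below SWNT replicates 1 and 3 for ADIPOQ and PLIN1.

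Adiponectin, encoded by ADIPOQ, is a circulating hormone made almost only by fat cells. ADIPOQ (chromosome 13, 124633685 to 124646646, plus strand, Sscrofa11.1) stood at 11, 58.7, 26.9, 117 and 15.8 CPM in SWNT-SHP1i replicates 1, 2, 3, 5 and 6, against 181, 2.01, 94.5, 83.0 and 3.56 CPM in SWNT replicates 1 to 5. All 5 SWNT-SHP1i values lay inside the SWNT range. The highest SWNT library exceeded the lowest by 90.3-fold, and the corresponding factor in SWNT-SHP1i was 10.6. On the log2 CPM scale the level was 4.99 ± 1.39 in SWNT-SHP1i and 4.67 ± 2.98 in SWNT (SD, n = 5 each). The fitted log2 fold change, which compares mean counts and so leans towards the highest libraries, was -0.66 ± 1.0 (SE; edgeR adjusted p = 0.997), with the opposite sign to the difference of the mean log2 levels. Its 95% interval ran from -2.83 to 1.5. Without SWNT replicate 1 the fold change was 0.01.

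Leptin is the satiety hormone of fat and its amount follows the fat store. LEP (chromosome 18, 20106868 to 20123323, minus strand) was near the detection limit, with 0, 26, 0, 26 and 0 reads in the SWNT-SHP1i libraries and 18, 2, 18, 84 and 0 reads in the SWNT libraries, in the order of their replicates. The 4 libraries at 0 comprise 3 of SWNT-SHP1i and 1 of SWNT, and 3 reads, the limit that a count of 0 allows, correspond to 0.0779 to 0.109 CPM there. SWNT replicate 4 alone held 84 reads (2.11 CPM), and without it the log2 fold change of -1.06 ± 1.53 became 0.37. The exact permutation p of the difference in log2 CPM was 0.444 (two-sided, all assignments of libraries to groups, smallest possible p = 0.00794), the lowest among the 10 genes. Low counts in this table are mostly even numbers (69.1% to 83.7% of counts from 1 to 20). For reads counted singly a share near 50% was assumed and not computed from these data. The number of independent fragments behind such values may therefore be smaller than the count. For the same reason the limit given for a count of 0 may be too low.

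PLIN1 encodes perilipin 1, the coat protein of the large droplet that restrains lipolysis until it is phosphorylated. PLIN1 (chromosome 7, 55236348 to 55250797, minus strand) stood at 3.30, 21.3, 7.28, 41.6 and 7.15 CPM in SWNT-SHP1i replicates 1, 2, 3, 5 and 6, against 67.7, 2.12, 42.9, 25.1 and 2.66 CPM in SWNT replicates 1 to 5. The order of the libraries was almost that of ADIPOQ, and all SWNT-SHP1i values again lay within the SWNT range. Its log2 level was 3.45 ± 1.44 in SWNT-SHP1i and 3.74 ± 2.31 in SWNT (SD, n = 5 each). The log2 fold change was -0.80 ± 0.90 (95% interval -2.75 to 1.15, adjusted p = 0.997), and its unadjusted p of 0.389 was the lowest of the 10 genes.

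PLIN4, or perilipin 4, coats nascent and small droplets and is also abundant in muscle. PLIN4 (chromosome 2, 74318628 to 74331909, plus strand) behaved unlike the other genes: it stood at 84.4, 75.5, 77.1, 99.2 and 61.1 CPM in SWNT-SHP1i replicates 1, 2, 3, 5 and 6, against 114, 65.9, 111, 66.4 and 56.9 CPM in SWNT replicates 1 to 5. The highest and lowest libraries of a group differed only by a factor of 1.62 in SWNT-SHP1i and 2.0 in SWNT. The log2 fold change of -0.06 ± 0.24 had the narrowest interval of the 10 genes, -0.57 to 0.45. It was 0.02 without SWNT-SHP1i replicate 6, 0.08 without SWNT replicate 1 and 0.07 without SWNT replicate 3.

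CIDEC and CIDEA encode proteins at the contact sites of droplets that let a small droplet empty into a larger one. CIDEC, typical of white fat, lies on chromosome 13 (66141839 to 66149703, minus strand) and stood at 1.47, 6.45, 4.13, 7.13 and 8.98 CPM in SWNT-SHP1i replicates 1, 2, 3, 5 and 6, against 12.7, 1.53, 13.6, 7.85 and 1.77 CPM in SWNT replicates 1 to 5. SWNT-SHP1i replicate 1 was below every SWNT library and the other 4 lay within their range. CIDEA, in mice a gene of brown and beige fat, lies on chromosome 6 (97253074 to 97267405, minus strand) and stood at 3.91, 5.35, 5.65, 6.68 and 13.2 CPM in SWNT-SHP1i, against 9.45, 2.39, 11, 9.24 and 2.25 CPM in SWNT. In CPM replicate 6, whose ADIPOQ level was the second lowest of the SWNT-SHP1i group, had the highest CIDEC and CIDEA levels of that group. Its CIDEA level in CPM was above every SWNT library. TPM scales each library by its own total of counts divided by exon length, without the scaling factors used for CPM. The exon length of a gene is the same in every library, so the order of libraries for a gene differs only through this scaling. In TPM the CIDEC level of replicate 6, at 13.4, was below SWNT-SHP1i replicates 2 and 5, the latter at 16.5. Its CIDEA level of 27.1 TPM was the highest of its group but below SWNT replicates 1 (28.6), 3 (27.2) and 4 (28.1). The log2 fold changes were -0.41 ± 0.64 for CIDEC and 0.02 ± 0.50 for CIDEA. CIDEA changed sign with single libraries left out, to -0.35 without SWNT-SHP1i replicate 6, -0.20 without SWNT replicate 2 and -0.21 without SWNT replicate 5.

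LPL encodes lipoprotein lipase, which frees fatty acids from circulating triglyceride at the capillary wall. LPL (chromosome 14, 4104772 to 4135814, plus strand) stood at 14.1, 31.3, 11.5, 92.3 and 36.2 CPM in SWNT-SHP1i replicates 1, 2, 3, 5 and 6, against 67.9, 6.96, 42.0, 50.4 and 13.2 CPM in SWNT replicates 1 to 5. SWNT-SHP1i replicate 5 was the highest of all 10 libraries. The log2 fold change was 0.04 ± 0.65 (95% interval -1.37 to 1.45), and it was -0.63 without SWNT-SHP1i replicate 5, -0.23 without SWNT replicate 2 and -0.17 without SWNT replicate 5.

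FABP4, the fatty acid carrier of the cytosol that is also known as aP2, gave the highest level of the 10 genes. FABP4 (chromosome 4, 55096404 to 55101896, plus strand) stood at 57.3, 126, 86.2, 149 and 246 CPM in SWNT-SHP1i replicates 1, 2, 3, 5 and 6, against 159, 43.1, 214, 109 and 42.0 CPM in SWNT replicates 1 to 5. Its log2 level was 6.88 ± 0.80 in SWNT-SHP1i and 6.53 ± 1.08 in SWNT (SD, n = 5 each). In CPM SWNT-SHP1i replicate 6 exceeded every SWNT library and the other 4 lay within the SWNT range. In TPM replicate 6 stood at 310, below SWNT replicate 3 at 326. The log2 fold change was 0.23 ± 0.49 (95% interval -0.84 to 1.29, adjusted p = 0.997), and without SWNT-SHP1i replicate 6 it was -0.12.

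LIPE encodes hormone-sensitive lipase, which splits diglyceride from the droplet, and PCK1 the cytosolic carboxykinase that makes the glycerol backbone for new triglyceride in fat. LIPE (chromosome 6, 49540708 to 49560125, plus strand) stood at 5.03, 11.6, 7.88, 23.2 and 32.9 CPM in SWNT-SHP1i replicates 1, 2, 3, 5 and 6, against 29, 6.90, 27.9, 9.96 and 4.76 CPM in SWNT replicates 1 to 5. As with CIDEA and FABP4, SWNT-SHP1i replicate 6 was above all SWNT libraries in CPM. In TPM it stood at 15.3, below SWNT replicates 1 (19.9) and 3 (15.7). The log2 fold change of 0.04 ± 0.60 turned negative in 5 of the 10 fits that left out a library: -0.14 and -0.40 without SWNT-SHP1i replicates 5 and 6, and -0.16, -0.11 and -0.20 without SWNT replicates 2, 4 and 5. PCK1 (chromosome 17, 57930432 to 57936522, plus strand) had 6, 112, 0, 64 and 40 reads in the SWNT-SHP1i libraries and 192, 0, 231, 124 and 0 reads in the SWNT libraries. It was thus undetected in SWNT-SHP1i replicate 3, the library with the most genes at 0, and in SWNT replicates 2 and 5, the libraries with the least ADIPOQ. The log2 fold change was -0.97 ± 1.43 (95% interval -4.08 to 2.15). No other gene of the table overlapped any of the 10 genes.

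**Figure D2:**
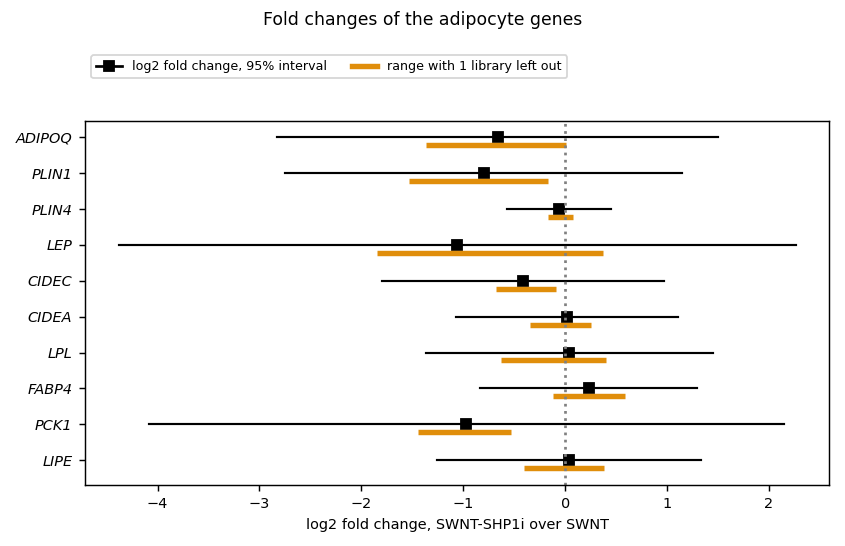
Log2 fold change of SWNT-SHP1i over SWNT for the 10 adipocyte genes (squares) with the 95% interval (black line) and the range of the fold change when each library in turn is left out (orange line). Every interval includes 0, and the interval of PLIN4, from -0.57 to 0.45, is the narrowest.

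Over the 10 genes 4 fold changes were positive and 6 negative, with a median of -0.24, beside a median of 0.01 over all genes tested. Single libraries moved both values. With SWNT-SHP1i replicate 5 or 6 left out, 2 fold changes were positive. The number was 6 when SWNT replicate 1 was left out, 5 for SWNT replicate 3, 1 for SWNT replicate 2 or 5, and 8 with limma-voom on all libraries. The median was -0.58 and -0.42 without SWNT-SHP1i replicates 5 and 6, 0.04 and -0.01 without SWNT replicates 1 and 3, and -0.45 and -0.44 without SWNT replicates 2 and 5. It was -0.13 without SWNT-SHP1i replicate 1 and -0.12 without SWNT replicate 4. The exact permutation p-values of the single genes ran from 0.444 to 0.968. The groups overlapped for all 10 genes, so 0 of 10 had groups without overlap, beside 0.358% of all genes tested. DESeq2 and limma-voom with quality weights also called 0 of the 10 genes. Over the whole table edgeR and limma-voom called 0 genes (739 and 1385 at an unadjusted p under 0.05). DESeq2 called 1 (1171 at an unadjusted p under 0.05), NUGGC (DESeq2 adjusted p = 0.035), which was at 0 CPM in every SWNT-SHP1i library and at 0.182 to 0.759 CPM in SWNT, was below the edgeR filter and is named here because of that call. The intervals are wide. For ADIPOQ, PLIN1, LEP and PCK1 they include a log2 change of -2 or beyond. Those of LEP and PCK1 also reach up to 2.26 and 2.15. Differences of these sizes, in the directions named, thus lie within what 5 animals a group leave possible.

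The spread between animals of a group was above the 95th percentile of all genes tested for 4 of the 10 genes. The pooled within-group SD of log2 CPM was 2.33 for ADIPOQ, 1.92 for PLIN1, 3.0 for PCK1 and 2.08 for LEP, against a median of 0.56 over all genes tested, which placed them at the 99.1, 96.4, 99.9 and 97.9 percentiles. LPL (1.30), CIDEC (1.29) and LIPE (1.14) stood at the 83.3, 83.1 and 79.7 percentiles. FABP4 (0.95) and CIDEA (0.92) followed at 74.8 and 74.1. PLIN4, with 0.38, was at the 25.4 percentile, so its level varied less than that of most genes. LEP and PCK1 had counts of 0 in 4 and 3 libraries, where the prior count sets the log2 value, and their SD is less certain for that reason. The percentiles are taken over genes of every level, so those of LEP and PCK1 do not compare them with other genes of low level.

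**Figure D3:**
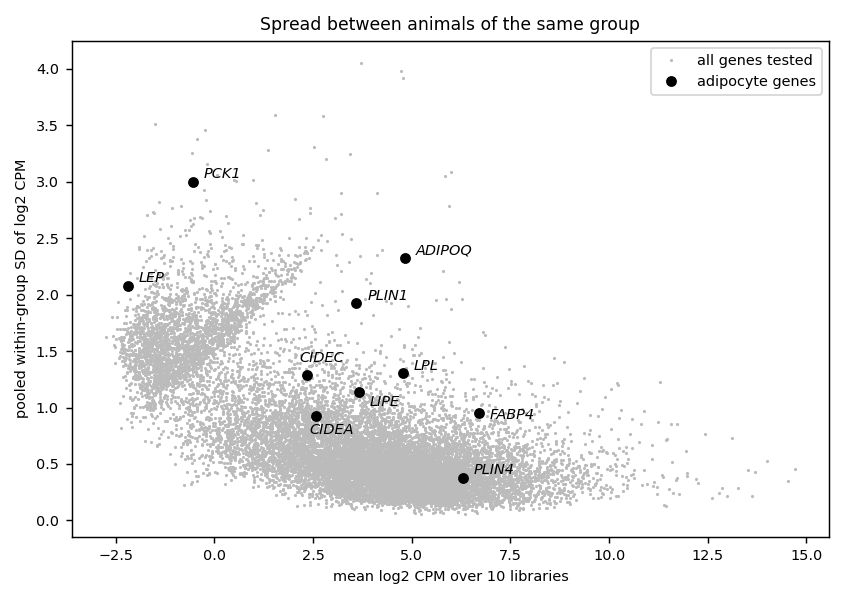
Pooled within-group SD of log2 CPM (vertical axis) against the mean log2 CPM over 10 libraries (horizontal axis) for all genes tested (grey) and the 10 adipocyte genes (black). ADIPOQ and PLIN1 lie above nearly all genes of their level, while PLIN4 lies among the bulk.

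In TPM, which divides counts by exon length and scales each library to the same total, the genes were ordered by their median over the 10 libraries as FABP4 (218 TPM), ADIPOQ (37.4), PLIN4 (27.4), CIDEA (18.5), LPL (17.5), CIDEC (13.7), PLIN1 (13.6), LIPE (7.35), PCK1 (1.67) and LEP (0.18). FABP4 held the largest part of the summed TPM of the 10 genes in each library, from 47.4% to 74.9% in SWNT-SHP1i and from 41.8% to 61.8% in SWNT. The share of ADIPOQ ran from 2.49% to 19.3% in SWNT-SHP1i and from 1.49% to 24.6% in SWNT. The ranges of TPM overlapped between all neighbours in this order. ADIPOQ, the hormone most specific to fat cells, spanned 10.3 to 118 TPM in SWNT-SHP1i and 1.82 to 175 TPM in SWNT, which covers most of the order.

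PLIN1 followed ADIPOQ most closely across the libraries. Over 10 libraries the Pearson correlation of log2 CPM with ADIPOQ was 0.97 for PLIN1 (Spearman rho 0.99), 0.88 for LPL (0.88), 0.86 for CIDEC (0.77) and 0.84 for PCK1 (0.83). It was 0.77 for CIDEA (0.66), 0.76 for FABP4 (0.68), 0.74 for LEP (0.66), 0.72 for PLIN4 (0.77) and 0.68 for LIPE (0.68). In permutation tests with 100000 resamples, p for r was 1e-05 for PLIN1, the smallest these resamples can give, and 0.00137, 0.00197 and 0.00368 for LPL, CIDEC and PCK1. The other 5 had permutation p-values of 0.0106 to 0.0349. Adjusted over these 9 relations the p-values of r ran from 9e-05 to 0.0349, and those of rho, with raw values of 2e-05 to 0.0439, from 0.00018 to 0.0439. Since the genes were listed together as fat cell genes, their joint variation is a description and not an independent finding.

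When SWNT replicates 2 and 5, the 2 libraries farthest from the median of ADIPOQ, were left out, r was 0.98 for PLIN1, 0.83 for LEP, 0.79 for LPL, 0.73 for CIDEC, 0.68 for PCK1 and 0.61 for PLIN4. It was 0.51 for LIPE, 0.41 for FABP4 and 0.34 for CIDEA. Leaving out these extremes also narrows the range of ADIPOQ. Without SWNT-SHP1i replicate 6 instead, chosen after seeing the data, r was 0.95 for FABP4, 0.94 for CIDEA, 0.93 for CIDEC and 0.84 for LIPE. With each group centred on its own mean r was 0.98 for PLIN1, 0.88 for LPL and 0.68 to 0.87 for the other 7.

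**Figure D4:**
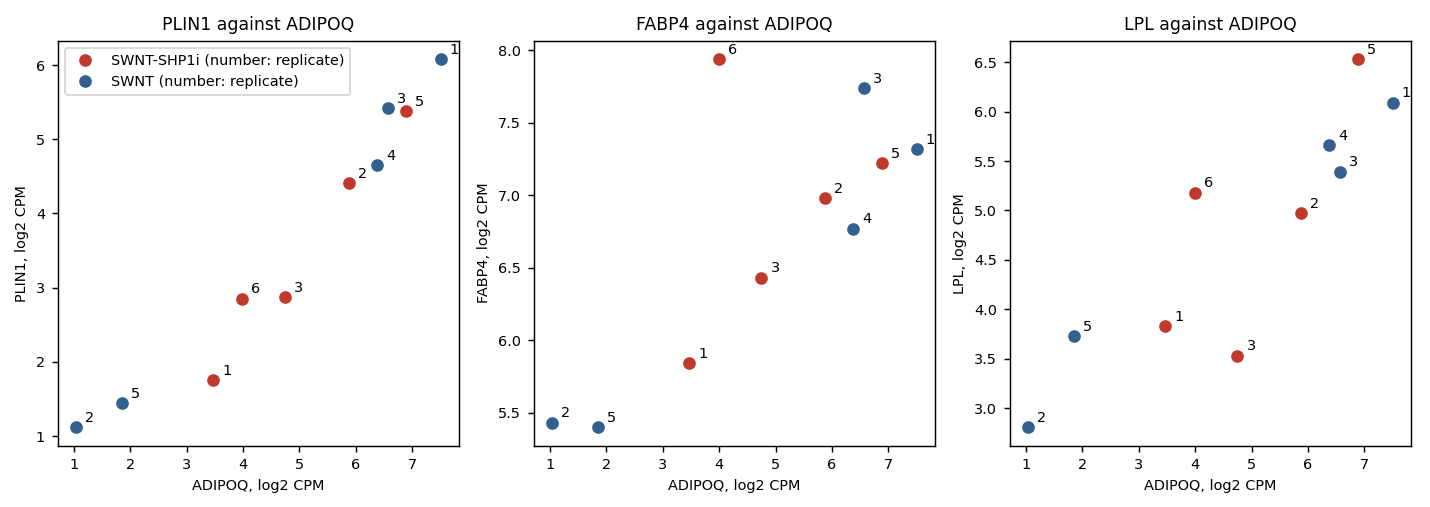
Log2 CPM of PLIN1, FABP4 and LPL against log2 CPM of ADIPOQ, 1 point per library with its replicate number, SWNT-SHP1i red and SWNT blue. The order of the libraries is nearly the same for PLIN1 and ADIPOQ (r = 0.97), while SWNT-SHP1i replicate 6 lies above the others for FABP4.

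The levels were also expressed as the ratio of TPM to ADIPOQ within a library. This measure was chosen after seeing the data and is given without a test. A low ADIPOQ level alone raises the ratio, so it gives no independent view of the correlations above. ADIPOQ was at 10.4 TPM in SWNT-SHP1i replicate 1 and at 10.3 TPM in SWNT-SHP1i replicate 6. For FABP4 the ratio was 10, 4.16, 6.19, 2.46 and 30.1 in SWNT-SHP1i replicates 1, 2, 3, 5 and 6, against 1.70, 41.6, 4.38, 2.53 and 22.8 in SWNT replicates 1 to 5. It was high where ADIPOQ was low, in SWNT replicates 2 and 5, and in SWNT-SHP1i replicate 6. In this last library the ratios of CIDEA (2.63), LPL (1.5), LIPE (1.48) and CIDEC (1.30) were also the highest of the SWNT-SHP1i group, whose other 4 libraries ran from 0.179 to 1.11, 0.281 to 0.839, 0.141 to 0.325 and 0.139 to 0.352. The ratio of PLIN1 spanned less, 0.291 to 0.487 in SWNT-SHP1i and 0.325 to 1.14 in SWNT. It too was highest in SWNT-SHP1i replicate 6 (0.487) within its group and in SWNT replicates 2 (1.14) and 5 (0.805).

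**Figure D5:**
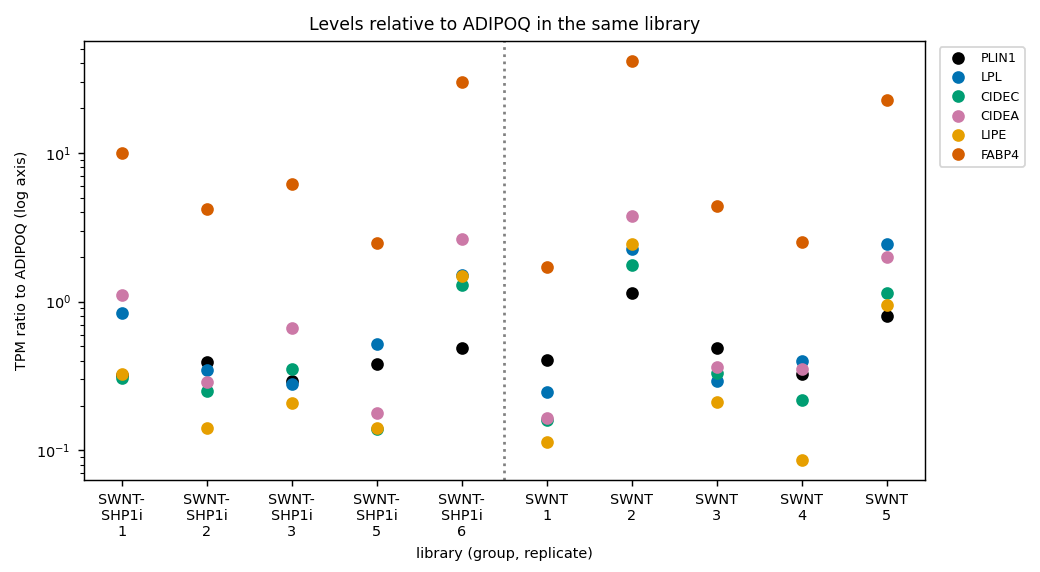
Ratio of TPM to that of ADIPOQ in the same library (log axis) for 6 adipocyte genes, with the 5 SWNT-SHP1i libraries left and the 5 SWNT libraries right. The FABP4 ratio reaches 30.1 in SWNT-SHP1i replicate 6 and 41.6 in SWNT replicate 2, and is between 1.70 and 22.8 in the others.

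Some of the genes also moved with markers of the endothelium. The 8 endothelial markers summed to 680, 1144, 595, 769 and 1656 CPM in SWNT-SHP1i replicates 1, 2, 3, 5 and 6, against 912, 413, 1526, 609 and 390 CPM in SWNT replicates 1 to 5. FABP4 had a Pearson r of 0.92 with their mean log2 CPM (Spearman rho 0.92; permutation p of 0.00028 for r and 0.00056 for rho; adjusted p = 0.0084 and 0.0168 over 30 relations, n = 10). This r was 0.88 without the 2 libraries farthest from the median and 0.92 with the groups centred. LIPE (0.84), CIDEA (0.82), CIDEC (0.81) and PCK1 (0.81) each had a permutation adjusted p = 0.0409 for r but missed the threshold for rho (adjusted p of 0.0558 to 0.12). PLIN1 (0.67), ADIPOQ (0.66), LPL (0.65), PLIN4 (0.54) and LEP (0.32) missed it for both. With the macrophage markers r ran from -0.37 to 0.31 and with the smooth muscle markers from -0.40 to 0.38, with adjusted permutation p-values of 0.705 or more. These 30 relations were computed after seeing the data. The part of endothelial or macrophage RNA in the level of FABP4 was not tested.

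The genes outside the list whose pattern was most like the mean of ADIPOQ and PLIN1 over the 10 libraries were AGT (r = 0.970, rho 0.96), CA3 (0.957, 0.95), GYS2 (0.921, 0.88), SGK2 (0.914, 0.88), TRARG1 (0.901, 0.95), PDE7B (0.901, 0.88), CFD (0.885, 0.79), MMD (0.877, 0.84), LGALS12 (0.877, 0.86) and EFCC1 (0.876, 0.84). They are the highest of all genes tested that carry a symbol, so these values are a description. GYS2, SGK2 and LGALS12 were at 0 in at least 1 library of each group. AGT, which encodes the precursor of angiotensin, ran from 2.11 to 28.1 CPM in SWNT-SHP1i and from 1.35 to 40.4 CPM in SWNT. CA3, a carbonic anhydrase, ran from 2.13 to 29.2 CPM in SWNT-SHP1i and from 0.868 to 39.4 CPM in SWNT. CFD, which encodes the complement protease adipsin, ran from 144 to 255 CPM in SWNT-SHP1i and from 113 to 303 CPM in SWNT. Those most like FABP4 were FABP5 (r = 0.949, rho 0.94), the related carrier of fatty acids, F11R (0.935, 0.93), a junction protein, and KANK3 (0.933, 0.95), and those most like LPL were SGK2 (0.937, 0.96), TRARG1 (0.930, 0.90) and ABCD2 (0.915, 0.80).

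Other genes of fat cell function, from lists that hold none of the 10, likewise gave 0 calls over all genes tested in either direction. Among 12 transcription factors of fat cells 6 had positive and 6 negative fold changes (median -0.02). PPARG, the master regulator of fat cell formation, ran from 2.80 to 9.56 CPM in SWNT-SHP1i and from 1.38 to 7.65 CPM in SWNT, with a log2 fold change of 0.46 ± 0.53. Its partner CEBPA ran from 19.7 to 107 CPM in SWNT-SHP1i and from 10.9 to 33.1 CPM in SWNT, with 1.17 ± 0.45 (unadjusted p = 0.0217, edgeR adjusted p = 0.997), the only one of the 12 with an unadjusted p under 0.05. ZNF423 (0.53 ± 0.27) and SREBF1 (0.57 ± 0.33) came next. The library with the most CEBPA was SWNT-SHP1i replicate 6, where the macrophage markers were also highest, and the part of macrophage RNA in this value was not tested.

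Of 8 further droplet proteins 7 had fold changes at or above 0 (median 0.31), among them FITM2 at 0.00 ± 0.22. Their sum was 313 CPM in SWNT-SHP1i replicate 6, against 139 to 174 CPM in the other 4 SWNT-SHP1i libraries and 138 to 169 CPM in SWNT. PLIN2, the droplet coat of cells other than fat cells, ran from 27.1 to 58.9 CPM in SWNT-SHP1i and from 27 to 49.5 CPM in SWNT (0.18 ± 0.25). The smallest p-values were those of PLIN3 (0.47 ± 0.28), BSCL2 (0.38 ± 0.30), which encodes seipin, and PLIN5 (0.93 ± 0.99). Of 9 tested lipolysis genes 3 were positive and 6 negative (median -0.12). G0S2, an inhibitor of the triglyceride lipase, ran from 6.65 to 17.7 CPM in SWNT-SHP1i and from 14.4 to 37.6 CPM in SWNT (-0.73 ± 0.33, unadjusted p = 0.0461, edgeR adjusted p = 0.997). That lipase itself, PNPLA2, gave -0.25 ± 0.32 and MGLL, the monoglyceride lipase, 0.23 ± 0.21.

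Fatty acid uptake genes were positive in 6 and negative in 5 of 11 (median 0.02). The fatty acid receptor CD36 ran from 27.9 to 139 CPM in SWNT-SHP1i and from 25.3 to 115 CPM in SWNT (-0.01 ± 0.53). GPIHBP1, the endothelial anchor of lipoprotein lipase, ran from 4.24 to 43.5 CPM in SWNT-SHP1i and from 2.69 to 30.5 CPM in SWNT (0.33 ± 0.77). SLC27A4 (0.78 ± 0.39), VLDLR (-0.58 ± 0.38) and SLC27A1 (-0.26 ± 0.18) had the smallest p-values. In triglyceride and fatty acid synthesis 7 of 13 tested genes were positive and 6 negative (median 0.05). The smallest p-values were those of the malic enzyme ME1 (0.59 ± 0.29), MOGAT1 (1.30 ± 1.14) and GPAM (-0.32 ± 0.32).

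Secreted fat cell proteins were positive in 6 of 9 tested genes (median 0.05), with RARRES2, which encodes chemerin, at 0.51 ± 0.28, C1QTNF1 at 0.40 ± 0.24 and APLN at 0.67 ± 0.42. Of 8 genes of leptin, adiponectin and insulin reception, which include the adaptors IRS1 and IRS2 and the glucose transporter SLC2A4, 2 were positive (median -0.24). LEPR ran from 0 to 5.82 CPM in SWNT-SHP1i and from 1.07 to 2.26 CPM in SWNT (0.56 ± 0.93). ADIPOR1 ran from 43.0 to 53.1 CPM in SWNT-SHP1i and from 46.7 to 54.5 CPM in SWNT (-0.08 ± 0.15), and ADIPOR2 from 40.5 to 88.2 CPM in SWNT-SHP1i and from 72.4 to 89.9 CPM in SWNT (-0.25 ± 0.20). The insulin-responsive glucose transporter SLC2A4 was at 12.0 to 34.8 CPM in SWNT-SHP1i and 27 to 38.8 CPM in SWNT (-0.62 ± 0.26, unadjusted p = 0.035, edgeR adjusted p = 0.997), and INSR gave -0.42 ± 0.48.

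Genes of brown and beige fat were split in direction and differed widely in level. Of 10 tested, 5 were positive and 5 negative (median -0.04). The coactivator PPARGC1A was at 0 to 0.36 CPM in SWNT-SHP1i and 0 to 0.491 CPM in SWNT, below the filter, and ELOVL3 was at 0 in all 10 libraries. UCP1, whose gene is disrupted in pigs, was not analysed here. UCP2 ran from 6.95 to 169 CPM in SWNT-SHP1i and from 7.84 to 29.9 CPM in SWNT (1.56 ± 0.70, unadjusted p = 0.0446, edgeR adjusted p = 0.997), and its highest value was in SWNT-SHP1i replicate 6. CITED1 (-0.83 ± 0.48) and PRDM16 (-0.44 ± 0.27) came next. PRDM16 was not scarce, at 49.5 to 118 CPM in SWNT-SHP1i and 69.6 to 152 CPM in SWNT.

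Markers of other cell types that a vessel sample could hold gave 0 calls after adjustment. At an unadjusted p under 0.05, however, 10 of 12 macrophage markers were higher (median 1.30) and 4 of 8 smooth muscle markers lower in SWNT-SHP1i. Over all genes the share was 4.64%, with both directions counted together. Markers of the same cell type were measured in the same libraries and are not independent observations. The progenitor and adventitial fibroblast markers were positive in 8 of 8 tested genes (median 0.46), with CD34 at 0.51 ± 0.22, THY1 at 0.44 ± 0.25 and MFAP5 at 0.62 ± 0.35, and their sum ran from 2523 to 5829 CPM in SWNT-SHP1i and from 1784 to 4981 CPM in SWNT. The smallest p-values of the macrophage markers were those of CD163 (1.82 ± 0.45), CD14 (1.71 ± 0.56) and CD68 (1.85 ± 0.63). The median over the smooth muscle markers was -0.68, with CNN1 at -0.84 ± 0.24, TAGLN at -0.67 ± 0.21 and LMOD1 at -0.69 ± 0.25. Nerve and Schwann cell markers had a median of -0.80 over 5 tested genes, with SOX10 at -0.83 ± 0.29 and ERBB3 at -1.07 ± 0.45. Endothelial markers were positive in 6 of 8 (median 0.32), with KDR at 0.64 ± 0.36, ERG at -0.41 ± 0.30 and EGFL7 at 0.79 ± 0.66. Lymphoid markers had a median of -0.07 over 7 genes, with MS4A1 at 0.77 ± 1.04 and CD79A at -0.31 ± 0.55. The muscle creatine kinase CKM stood at 8.06 to 166 CPM in SWNT-SHP1i and 6.92 to 23.9 CPM in SWNT (2.61 ± 0.69). TNNC2 stood at 0 to 2.08 CPM in SWNT-SHP1i and 0.577 to 0.938 CPM in SWNT (0.55 ± 0.93). ACTA1, MYH1, MYH2 and MYH7, defining genes of skeletal or heart muscle, were below the filter. ACTA1 reached 3.41 CPM in SWNT-SHP1i and 0.0599 CPM in SWNT, and MYH7 reached 1.58 and 0.251 CPM. MYH1 and MYH2 reached 0.102 and 0 CPM in SWNT-SHP1i and 0.182 CPM each in SWNT. MB, MYLPF and TTN of this list were not found by name. Of the mesothelial markers, KRT19 (-1.47 ± 0.84) and KRT8 (-0.81 ± 0.62) were tested. The part of these cell types in the levels of the fat cell genes was not tested.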

How the data were processed

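RNA of carotid artery was captured on poly-T beads and copied with random hexamers, per the labels' protocols. The authors deposited 1 table of raw counts, without normalization. Trim Galore, STAR, DESeq2 and the build Sscrofa11.1 are named in the submitters' processing notes. Which program counted the reads, with which strand setting and annotation, is not given in the sources used here; without strand, reads of a gene and an antisense partner could not be told apart. Exon length is taken from the table, which the authors deposited with other columns of gene position. Symbols came from the table for 17508 genes, from an identifier table for 223, and from RefSeq genes on Sscrofa11.1 overlapping by at least 0.5 of the union for 908 (94.2% of 13851 named genes with such a match carried the same symbol). All 10 adipocyte genes were named by the table.

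Counts passing filterByExpr (minimum count 10) were scaled by TMM and tested with the quasi-likelihood test of edgeR 4.0.16 (R 4.3.3, robust) comparing SWNT-SHP1i to SWNT with no covariate. The p-values of the 15930 genes were adjusted by Benjamini-Hochberg, with a threshold of 0.05. The SE of a fold change is its size divided by the root of F. Levels are CPM of the TMM-adjusted totals, log2 CPM with a prior count of 2, or TPM from the exon lengths. Single genes were also tested by two-sided exact permutation of the 10 libraries. Alternatives were RLE scaling, no filter, DESeq2 1.42.0, limma 3.58.1 (voom with quality weights), non-robust dispersion, each library left out, SWNT-SHP1i replicates 3 and 6 left out together, and only animals whose numbers begin with B9, a range that no label calls a batch. The edgeR test alone was also run on simulated counts, drawn independently for each gene, unlike the shared variation of genes in these libraries. No result given here rests on that run. Among 45 pairs of libraries the lowest median chi-square per gene was 5.86, where sampling noise gives 0.45, so all were kept as separate animals. Replicate numbers follow accession order and pair no animals. The limit from a count of 0 covers counting error only, while the intervals of fold changes include the spread between animals. The genes and lists were chosen with earlier results of these data known. Genes named from the other lists are those with the 3 smallest p-values in each list plus PPARG, CEBPA, PLIN2, PNPLA2, CD36, GPIHBP1, LEPR, ADIPOR1, ADIPOR2, UCP1 and PPARGC1A; for likeness, the 10 genes with the highest r to the mean of ADIPOQ and PLIN1, and 3 each for FABP4 and LPL. Of the genes this rule names, 2 are not reported here.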

Additional observations from a re-analysis of the deposited data

Results flagged for a closer look

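In groups of 5 libraries, a value was singled out when its gap to the nearest other library exceeded 0.71 of the range of its group. For 5 independent values of a normal distribution chance gives this in about 1 in 20 groups. The values here are CPM without a log scale, and the genes share the same libraries, so that rate need not hold. Of 38 groups of 5 values (19 genes in both groups), 4 held such a value. LEP reached 2.11 CPM in SWNT replicate 4, against 0 to 0.409 CPM in the other 4 SWNT libraries. The other values were all in SWNT-SHP1i replicate 6, the library with the highest macrophage and endothelial sums: CEBPA at 107 CPM, PNPLA2 at 243 CPM and GPIHBP1 at 43.5 CPM. The part of those cell types in these values was not tested.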

How the results depend on the processing

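Under every alternative run, 0 of the 10 adipocyte genes passed an adjusted p of 0.05. The number of genes called over the whole table was 0 except with DESeq2, which called 1. The median fold change of the 10 genes (-0.24) was 0.29 with limma-voom with quality weights and 0.04 over the animals with B9 numbers, and ran from -0.58 to 0.04 with 1 library left out. That fit gave ADIPOQ 1.25, PLIN1 0.41, PLIN4 0.18, LEP 0.07, PCK1 2.26 and LIPE -0.04, all opposite in sign to edgeR; the cause was not tested. Signs also turned for CIDEA with no filter (-0.01). Without SWNT-SHP1i replicates 3 and 6 they turned for PLIN4 (0.07), CIDEA (-0.37), FABP4 (-0.03) and LIPE (-0.24), and over the animals with B9 numbers for PLIN4 (0.08) and CIDEC (0.00). With 1 library left out at a time, the fold changes ran from -1.37 to 0.01 for ADIPOQ, -0.17 to 0.08 for PLIN4, -1.85 to 0.37 for LEP, -0.35 to 0.25 for CIDEA, -0.63 to 0.40 for LPL, -0.12 to 0.59 for FABP4 and -0.40 to 0.38 for LIPE. They ran from -1.53 to -0.17 for PLIN1, -0.68 to -0.09 for CIDEC and -1.44 to -0.53 for PCK1. Each of the 10 genes changed sign under at least 1 of the alternatives run. With 5 animals a group, a range of up to 90.3-fold within a group limits what could be detected.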
